A study of Mus musculus with 6 samples.

Results

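The genes described here encode elastic fibre and matricellular glycoproteins of the extracellular matrix. They were chosen by name from the deposited count table, with earlier results of these data known. They are Eln, Fbn1, Fbln2, Fbln5, Mfap4, Emilin1, Fn1, Sparc, Postn and Thbs2, which makes 10 of the 41388 genes counted. All 10 were present and passed the filter on low counts, with 17287 genes tested in all. The levels were measured by RNA-Seq in whole liver of male C57BL/6 mice. Every mouse carried floxed Mttp alleles (Mttp f/f) and the Villin Cre ER T2 transgene, a recombinase driven by the Villin promoter of the intestinal epithelium and switched on by tamoxifen. *Mttp-IKO* mice received tamoxifen for 5 days at 50 µg per g of body weight per day, which deletes microsomal triglyceride transfer protein in the gut. Control littermates, called wild type in the labels, received the vehicle, so gene deletion and exposure to tamoxifen cannot be told apart. Both groups, aged 12 to 16 weeks, were fed a methionine and choline deficient (MCD) diet for 3 weeks, starting 3 weeks after the injections, so there was no group without the diet, and all mice were fasted before the liver was collected, for 4 to 6 h by the methods and 4 h by the design text. Each genotype was read as 3 pools, each of RNA from 3 to 4 mice by the methods, while the design text speaks of 12 livers without saying whether in all or per genotype, and p-values therefore measure the spread between pools rather than between mice. The comparison asks how these matrix genes differed in the MCD-fed liver when the gut could not assemble chylomicrons.

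Elastic fibres are built from a core of cross-linked elastin laid on a scaffold of fibrillin microfibrils, with fibulins, emilins and microfibril-associated proteins joining the parts and lysyl oxidases making the cross-links. Matricellular proteins are secreted into the matrix but act mainly as signals and assembly factors, binding integrins, collagens and growth factors. In injured liver, hepatic stellate cells and portal fibroblasts are known to make most of these proteins, whereas fibronectin is also made in bulk by hepatocytes and released into plasma.

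The pools held 25271585 to 36238734 reads on genes, and levels are given as CPM, read counts relative to library size, scaled by the TMM method of edgeR. The defining liver cell genes were present, with a summed level of 53325 to 160962 CPM over 6 hepatocyte markers. Liver Mttp was 150.2 ± 52.1 CPM in controls, against 145 ± 15.9 CPM in *Mttp-IKO* pools (SD, n = 3 each), which checks no label because the deletion is confined to the intestine by design. Striated muscle genes stood apart in 2 libraries. Their 10 markers summed to 135 CPM in control pool 1 and 1021 CPM in control pool 2, against 1.22 CPM in control pool 3 and 1.01 to 1.87 CPM in *Mttp-IKO* pools. *Mttp-IKO* pool 3 also differed more from the other pools of its genotype, with a chi-square per degree of freedom over gene counts of 208 and 191, beside 34.7 to 94.9 in the other pairs within a genotype. Of 17287 genes, 694 differed between genotypes at an adjusted p under 0.05 in edgeR's quasi-likelihood test, which is 4.01%, and 535 of them (3.09%) were lower in *Mttp-IKO* liver.

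In *Mttp-IKO* liver 8 of the 10 genes fell and 0 rose. These were Fbn1, Fbln2, Fbln5, Mfap4, Emilin1, Sparc, Postn and Thbs2, with adjusted p of 0.0159 to 0.0444 in edgeR's quasi-likelihood test, against the 3.09% of all genes that were called lower and the 0.92% called higher. The remaining Eln and Fn1 did not pass the threshold. In 9 genes every *Mttp-IKO* pool lay below every control pool, a pattern found downward in 16.5% of all genes tested, and Fn1 lay above in every pool, so that 10 of 10 genes did not overlap beside 31.0% of all genes. The mean level of the 9 was 17.3% to 40.6% of the control mean. The median log2 fold change was -1.60 over the 10 genes, beside 0.0059 over all genes tested. The 10 genes were chosen with earlier results of these data known, so these counts and medians describe the list and test no enrichment. In bulk RNA, fewer cells of a type and less RNA per cell cannot be told apart. The calls depended on which pools were kept, over all genes as well as among the 8. In edgeR 0 of the 8 passed without control pool 1 (adjusted p 0.0584 to 0.168) or without control pool 3 (0.0642 to 0.121). The same held without *Mttp-IKO* pool 1 (0.0613 to 0.101) and without *Mttp-IKO* pool 2 (0.0954 to 0.166). Over all genes, with 17652 to 17943 tested, these fits called 24, 21, 55 and 0, in that order. Without *Mttp-IKO* pool 3, 6 of the 8 and 864 of all genes passed, and without control pool 2, 7 and 892. The direction of all 10 genes stayed the same.

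**Figure D1:**
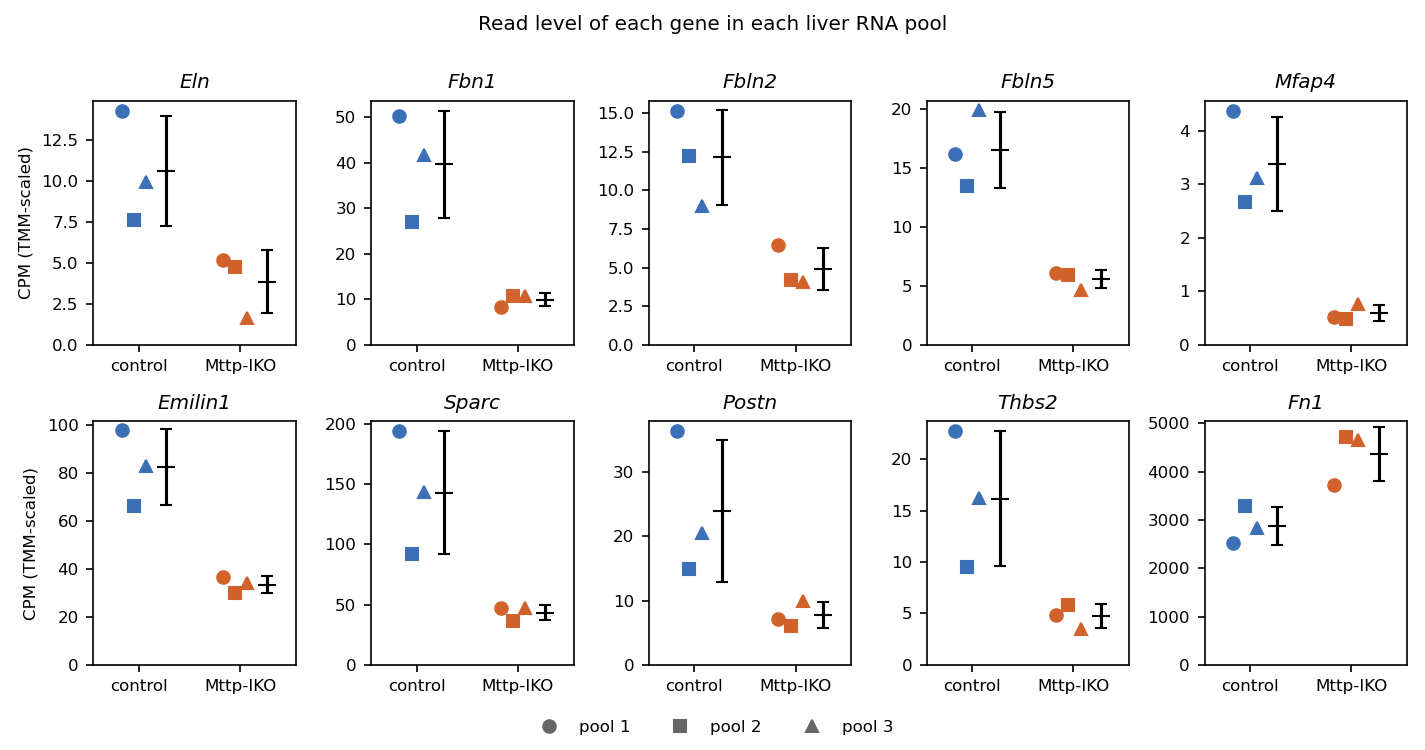
Read level of the 10 genes in each liver RNA pool, in TMM-scaled CPM on axes that start at 0, with symbols for pools 1 to 3 of each genotype and black bars for the mean ± SD of 3 pools. In the 9 panels other than Fn1 every *Mttp-IKO* pool sits below every control pool, and in Fn1 the *Mttp-IKO* pools sit above, from 3731 to 4721 CPM against 2518 to 3282 CPM.

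Among the core and scaffold genes of the elastic fibre, Fbn1 encodes fibrillin-1, the main protein of the microfibril (ENSMUSG00000027204, GRCm38 chromosome 2, 125300594 to 125507993, minus strand). Its level was 50.2, 27.0 and 41.8 CPM in control pools 1 to 3, against 8.37, 10.6 and 10.8 CPM in *Mttp-IKO* pools 1 to 3. The lowest control pool was 2.5 times the highest *Mttp-IKO* pool. Fbn1 fell from 39.7 ± 11.8 to 9.93 ± 1.36 CPM, a log2 fold change of -2.0 with a standard error (SE) of 0.249 and an edgeR adjusted p of 0.0159. The exons of Gm9913 overlap 20.1% of Fbn1's exon bases on the other strand, and Gm9913 was given 12 reads over all pools.

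Eln encodes tropoelastin, the soluble subunit that is cross-linked into the elastic core (ENSMUSG00000029675, chromosome 5, 134703781 to 134747241, minus strand). Control pools 1 to 3 held 14.2, 7.62 and 9.92 CPM, and *Mttp-IKO* pools held 5.15, 4.73 and 1.63 CPM. The pools did not overlap, but *Mttp-IKO* pool 3 was far below the others, and the *Mttp-IKO* mean was 3.84 ± 1.92 CPM beside 10.6 ± 3.35 CPM in controls. The log2 fold change of Eln was -1.46 with an SE of 0.421, and its adjusted p of 0.0945 in edgeR missed the threshold. Without *Mttp-IKO* pool 3 the log2 fold change was -1.10 and the adjusted p 0.0733.

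Mfap4, a microfibril-associated glycoprotein that binds elastin and fibrillin, was the scarcest of the 10 (ENSMUSG00000042436, chromosome 11, 61485431 to 61488900, plus strand). It had 4.36, 2.66 and 3.12 CPM in controls, against 0.515, 0.480 and 0.754 CPM in *Mttp-IKO* pools, the latter from 16, 14 and 18 reads. Each *Mttp-IKO* pool was well below each control pool, by at least 3.53 times between the nearest pair. Mfap4 fell by 2.54 on the log2 scale (SE 0.341, edgeR adjusted p 0.0181), to 17.3% of the control mean. Mapk7, with 1709 reads over all pools, overlaps 4.63% of its exon bases on the other strand, and no source used here says if reads were counted by strand.

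Emilin1, a glycoprotein at the border of elastin and microfibrils, was the most abundant elastic fibre component of the list (ENSMUSG00000029163, chromosome 5, 30913402 to 30921278, plus strand). The pools gave 97.8, 66.4 and 82.9 CPM in controls and 36.6, 29.8 and 33.9 CPM in *Mttp-IKO* liver. The *Mttp-IKO* pools were close to each other, with an SD of 10.3% of their mean. Emilin1 fell from 82.4 ± 15.7 to 33.4 ± 3.45 CPM, a log2 fold change of -1.30 (SE 0.185, edgeR adjusted p 0.0181).

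Of the fibulins on the list, Fbln5 tethers elastin to cells and helps to place lysyl oxidase on it (ENSMUSG00000021186, chromosome 12, 101746565 to 101819055, minus strand). Its levels were 16.2, 13.4 and 19.9 CPM in controls, against 6.09, 5.93 and 4.65 CPM in *Mttp-IKO* pools. Unlike most of the list, Fbln5 was highest in control pool 3. Fbln5 fell by 1.57 on the log2 scale with an SE of 0.211 and an edgeR adjusted p of 0.0181. Fbln2, which binds fibrillin and fibronectin (ENSMUSG00000064080, chromosome 6, 91212455 to 91272540, plus strand), had 15.2, 12.2 and 9.01 CPM in controls, against 6.44, 4.21 and 4.06 CPM in *Mttp-IKO* pools. The gap between its groups was the narrowest of the 9, at 1.4 times between the nearest pools. Fbln2 fell by 1.30 on the log2 scale with an SE of 0.270 and an edgeR adjusted p of 0.0423. That call was lost without control pool 2 (adjusted p 0.0707), without *Mttp-IKO* pool 3 (0.0636) and with the trend of each library with gene length removed (0.0511).

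The promoters of the matricellular genes Sparc, Postn and Thbs2 are shown because RefSeq windows were at hand for all 3 of this class. In these 3 genes, as in Eln, Fbn1, Mfap4 and Emilin1, control pool 1 was the highest control and pool 2 the lowest. The windows run from 250 bases before to 50 bases after a RefSeq transcript start on GRCm38.p6, are written 5′ to 3′ along the gene, and carry in capitals the letters TATAAA or CAGACA, the latter a binding sequence known for SMAD proteins, or their reverse complements TTTATA and TGTCTG. RefSeq has 2 Postn windows, of which the one without any of the searched letters (chr3:54359017-54359316) is not printed. The other Postn window is chr3:54360857-54361156 on the plus strand, the Sparc window chr11:55420031-55420330 on the minus strand and the Thbs2 window chr17:14694213-14694512 on the minus strand.
Postn: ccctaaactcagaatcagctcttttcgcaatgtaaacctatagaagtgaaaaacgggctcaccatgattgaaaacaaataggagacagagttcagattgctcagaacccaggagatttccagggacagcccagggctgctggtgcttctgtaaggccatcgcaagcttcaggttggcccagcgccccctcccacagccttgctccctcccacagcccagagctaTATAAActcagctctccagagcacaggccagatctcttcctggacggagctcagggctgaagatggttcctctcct
Sparc: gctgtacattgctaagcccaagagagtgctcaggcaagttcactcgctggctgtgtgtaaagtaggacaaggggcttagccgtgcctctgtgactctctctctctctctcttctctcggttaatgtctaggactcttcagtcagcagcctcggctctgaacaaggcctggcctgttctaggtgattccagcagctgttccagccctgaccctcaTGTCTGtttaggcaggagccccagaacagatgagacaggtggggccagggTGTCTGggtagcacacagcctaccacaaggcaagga
Thbs2: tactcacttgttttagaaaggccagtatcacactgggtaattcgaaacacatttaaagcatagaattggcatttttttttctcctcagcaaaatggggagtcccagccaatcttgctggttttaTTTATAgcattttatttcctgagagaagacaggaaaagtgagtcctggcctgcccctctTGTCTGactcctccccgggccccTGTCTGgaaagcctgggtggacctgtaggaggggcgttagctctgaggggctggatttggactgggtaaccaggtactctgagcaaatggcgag

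The TATAAA letters began at position -26 from the start in the printed Postn window, and their complement at -126 in the Thbs2 window. CAGACA or its complement began at positions -36 and 15 of Sparc and at -67 and -44 of Thbs2. Windows were at hand for 7 of the 10 genes, 9 windows in all, and each motif was searched on both strands. TATAAA was found in 2 of the 9 windows (Postn and Thbs2) and in 13.6% of all 32851 RefSeq windows. CAGACA was found in 4 of the 9 windows (Emilin1, Sparc, Fbln5 and Thbs2) and in 21.0% of all windows, and GGGCGG, read by Sp1, in 3 of the 9 (Fbn1, Fbln2 and Fbln5) and 35.7% of all windows. The letters TGANTCA of AP-1 (7.81% of all windows), GGAATG of TEAD (14.7%) and GTCTAGAC of SMAD (0.213%) and the CArG box (1.63%) were in 0 of the 9 windows. These matches describe the letters in the windows and do not show binding.

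Sparc encodes osteonectin, a collagen-binding glycoprotein (ENSMUSG00000018593, chromosome 11, 55394500 to 55420080, minus strand). It had 194, 91.6 and 143 CPM in controls, against 46.9, 36 and 46.8 CPM in *Mttp-IKO* pools. Control pool 1 was 2.12 times control pool 2, a wide spread within a genotype, yet the lowest control was still 1.95 times the highest *Mttp-IKO* pool. Sparc fell from 143 ± 51.2 to 43.3 ± 6.28 CPM, a log2 fold change of -1.72 (SE 0.278, edgeR adjusted p 0.0231).

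Postn encodes periostin, an integrin ligand that helps to activate lysyl oxidase and is made in healing tissue (ENSMUSG00000027750, chromosome 3, 54361109 to 54391034, plus strand). Its pools read 36.4, 15 and 20.5 CPM in controls and 7.15, 6.06 and 9.97 CPM in *Mttp-IKO* liver. The controls spread the most of the 10 genes, with an SD of 46.4% of the mean. Postn fell by 1.64 on the log2 scale with an SE of 0.346 and an edgeR adjusted p of 0.0444, the highest among the 8 that passed. Thbs2 encodes thrombospondin-2, a matrix protein that binds CD36 and CD47 and hinders the growth of vessels (ENSMUSG00000023885, chromosome 17, 14665500 to 14694262, minus strand). Control pools had 22.7, 9.56 and 16.2 CPM of Thbs2, and *Mttp-IKO* pools had 4.89, 5.79 and 3.52 CPM. All 3 *Mttp-IKO* pools were low, but control pool 2 lay closer to them than to control pool 1. Thbs2 fell by 1.77 on the log2 scale with an SE of 0.336 and an edgeR adjusted p of 0.0340. Fbln2, Postn and Thbs2 did not pass with limma-voom in place of edgeR, which called 2.48% of all genes, and Thbs2 also did not pass without *Mttp-IKO* pool 3.

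Fn1 encodes fibronectin, the adhesive glycoprotein on which cells assemble other matrix proteins (ENSMUSG00000026193, chromosome 1, 71585520 to 71653200, minus strand). It had 2518, 3282 and 2825 CPM in the controls, against 3731, 4721 and 4654 CPM in the *Mttp-IKO* pools. Opposite to the other 9, every *Mttp-IKO* pool was above every control pool. The means were 2875 ± 385 and 4368 ± 553 CPM, a log2 fold change of 0.60 with a 95% confidence interval of 0.095 to 1.11. With an adjusted p of 0.159 in edgeR, Fn1 did not pass the threshold, whereas the Wald test of DESeq2, which called 11.6% of all genes, gave 0.0237. Counts do not separate plasma fibronectin from the cellular splice forms.

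**Figure D2:**
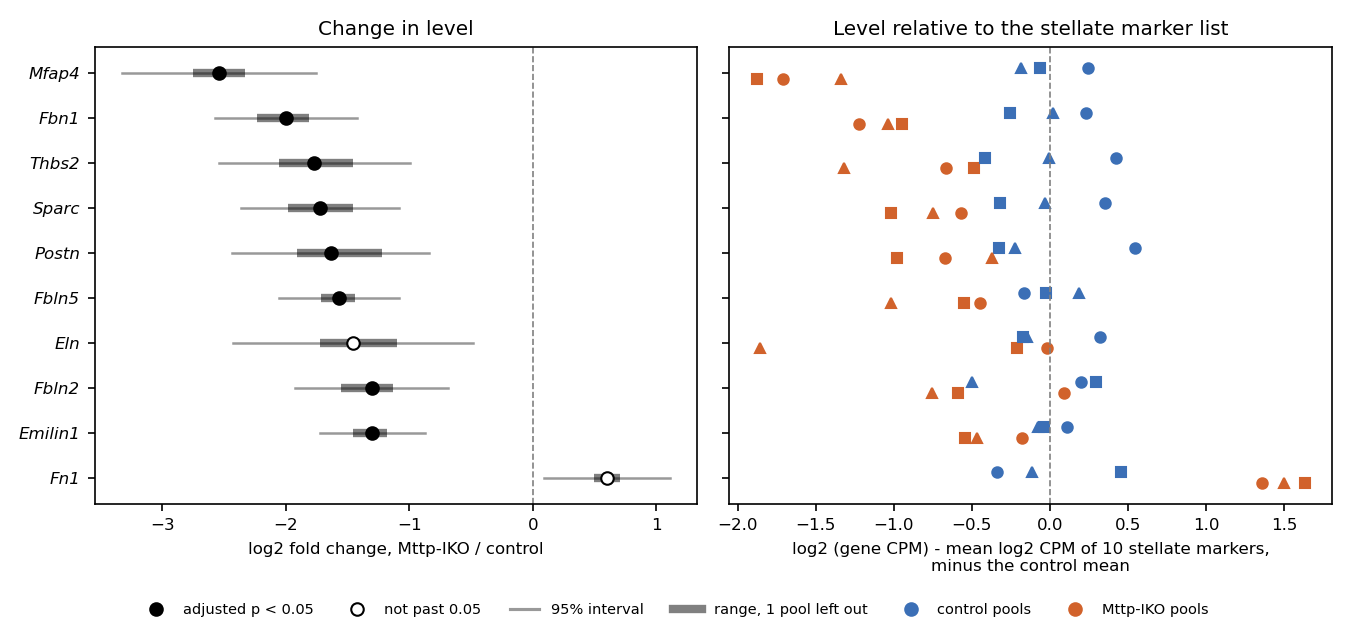
Left, log2 fold changes (*Mttp-IKO* / control) of the 10 genes with 95% confidence intervals as thin lines and the range over fits that each leave out 1 pool as thick bars, filled circles marking an edgeR adjusted p under 0.05. Right, each pool's log2 CPM relative to the mean log2 CPM of 10 stellate cell markers, centred on the control mean. The 9 genes other than Fn1 lie left of 0 on the left, from -2.54 to -1.30, and on the right Eln and Fbln2 are the 2 of these 9 whose pools overlap between genotypes.

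Per gene length, Fn1 was by far the most abundant. In control liver it stood at 246 ± 32.9 RPKM, which is CPM divided by the length of the gene in kilobases, followed by Sparc at 42.4 ± 15.2 RPKM and Emilin1 at 16.7 ± 3.19 RPKM, and the pool ranges of these 3 did not overlap with each other or with the next gene. Below them Eln (4.10 RPKM), Fbn1 (3.27), Postn (3.06), Fbln5 (2.83), Thbs2 (2.73), Fbln2 (2.07) and Mfap4 (1.76) each overlapped with their neighbours in this order of mean RPKM. In *Mttp-IKO* liver Fn1 was at 374 ± 47.4 RPKM, Sparc at 12.8 ± 1.87 RPKM and Emilin1 at 6.77 ± 0.699 RPKM. Eln, Postn, Fbln5, Fbln2, Fbn1 and Thbs2 followed with mean RPKM of 1.49 to 0.799, each overlapping with its neighbour, and Mfap4 was separate and lowest at 0.303 RPKM. Fn1 made up 67.6%, 83.6% and 75.5% of the summed RPKM of the 10 genes in control pools and 91.9%, 94.6% and 93.9% in *Mttp-IKO* pools. This share had to separate the genotypes, since Fn1 was higher and each other gene lower in every *Mttp-IKO* pool. The summed RPKM of the other 9 was 55.1 to 103 in control pools and 23.2 to 28.2 in *Mttp-IKO* pools. By mean RPKM among 21534 protein-coding genes, Fn1 ranked 160 in control and 109 in *Mttp-IKO* liver, Sparc 964 and 3166, and Emilin1 2449 and 5230.

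**Figure D3:**
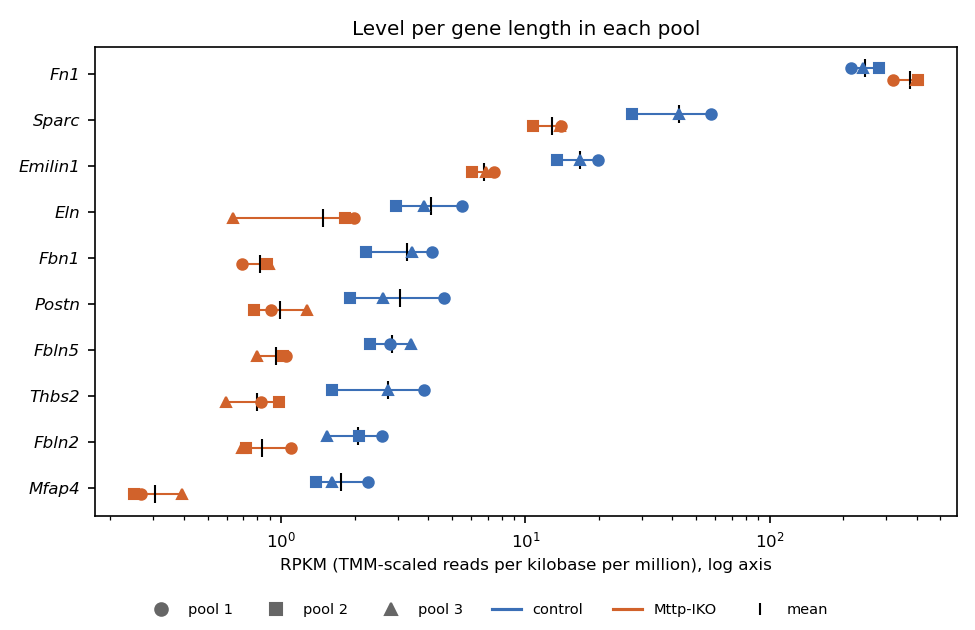
Level per gene length of the 10 genes in each pool, in RPKM on a log axis, ordered by the control mean, with lines for the range of 3 pools and black ticks for the mean. Fn1 (246 RPKM in control and 374 RPKM in *Mttp-IKO* liver) lies above all others in both genotypes, and Mfap4 is lowest in both.

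The other genes of elastic fibre and matricellular biology were taken as a list of 65 genes in 4 classes, of which 60 were tested. In *Mttp-IKO* liver 23 of them fell and 1 rose, while 36 did not pass, beside 4.01% of all genes tested passing in either direction. The list was chosen with earlier results of these data known, so its counts are a description and test no enrichment. The class of other elastic fibre genes was drawn broadly and includes genes whose products are not fibre components, such as Atp6v0a2. Among its 24 tested genes 14 fell and 0 rose, with a median log2 fold change of -1.44. Slc2a10, among the 14, had 62 reads over all pools. Ltbp3, a latent TGF-β binding protein of the microfibril, fell from 25.4 ± 5.25 to 8.13 ± 0.545 CPM (edgeR adjusted p 0.0155). Loxl1, the lysyl oxidase that cross-links elastin, fell from 16.7 ± 5.39 to 3.34 ± 0.877 CPM (0.0175). Ltbp2, Adamtsl2, which binds microfibrils, and Efemp2, the fibulin that brings lysyl oxidase to elastin, fell by 1.98, 1.54 and 1.42 on the log2 scale. The most abundant of the class that did not pass were Atp6v0a2, a subunit of the vesicular proton pump, at 37.8 and 39.5 CPM in control and *Mttp-IKO* liver, and Emilin2 at 14.9 and 15.1 CPM.

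Families within this class were set out after the values had been seen. All 4 latent TGF-β binding proteins fell, with log2 fold changes of -1.98 to -0.77, as did 3 of 4 further fibulins and 3 of 5 lysyl oxidases. Fbn2, the fibrillin of developing tissue, was also singled out afterwards. It had 4.43, 0.803 and 2.18 CPM in controls, against 0.129, 0.137 and 0 CPM in *Mttp-IKO* pools, with an edgeR adjusted p of 0.0330. Its *Mttp-IKO* values are near the 0.0828 to 0.119 CPM that 3 reads are worth, so no fold is given.

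Of 19 other matricellular and adhesive glycoproteins, 4 fell and 1 rose, with a median log2 fold change of -0.84. Tnc, tenascin-C of injured tissue, fell from 12.6 ± 8.45 to 0.921 ± 0.133 CPM (edgeR adjusted p 0.0175), and its control pools alone ranged from 6.54 to 22.3 CPM. Tnxb, tenascin-X, fell from 121 ± 3.04 to 40.7 ± 11.6 CPM (0.0181). Matn2, a filament-forming matrilin, and Tgfbi, a TGF-β-induced collagen-binding protein, fell by 1.90 and 0.88 on the log2 scale. Smoc1, a secreted calcium-binding relative of Sparc, rose from 168 ± 22.7 to 335 ± 32.9 CPM, a log2 fold change of 0.99 (edgeR adjusted p 0.0300). Vtn, the plasma adhesion protein vitronectin, and Ecm1 did not pass, at 1428 and 1712 CPM and at 199 and 204 CPM in control and *Mttp-IKO* liver. Of the 5 CCN proteins, grouped after the values had been seen, 0 passed in edgeR, with adjusted p of 0.0679 to 0.560.

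Of 11 receptors 3 fell and 0 rose, with a median log2 fold change of -0.34. Itga8, the integrin chain of stellate and smooth muscle cells, fell from 12.3 ± 1.10 to 4.03 ± 1.11 CPM (edgeR adjusted p 0.0192). Cd36, a thrombospondin receptor and fatty acid transporter, fell by 1.31 and Itgb5, a chain of the vitronectin receptor, by 0.71 on the log2 scale. Sdc4 and Stab1 did not pass, with log2 fold changes of 0.51 and -0.59. Among 6 enzymes that cut elastic fibres 2 fell. Mmp12, the macrophage elastase, fell from 168 ± 82.7 to 25.2 ± 12.1 CPM (edgeR adjusted p 0.0306), and Mmp2, a gelatinase of mesenchymal cells, from 15.9 ± 3.00 to 4.58 ± 0.841 CPM (0.0159). Ctss, with a log2 fold change of -1.64, had an adjusted p of 0.0621, and Mmp7, with a log2 fold change of 0.17, had means of 4.02 and 4.49 CPM. Against 24 calls on the list of 65 with all pools, 1 gene passed without control pool 1. Without control pool 3, *Mttp-IKO* pool 1 or *Mttp-IKO* pool 2, 0 passed. Over all genes the same fits called 24, 21, 55 and 0, in the order named.

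**Figure D4:**
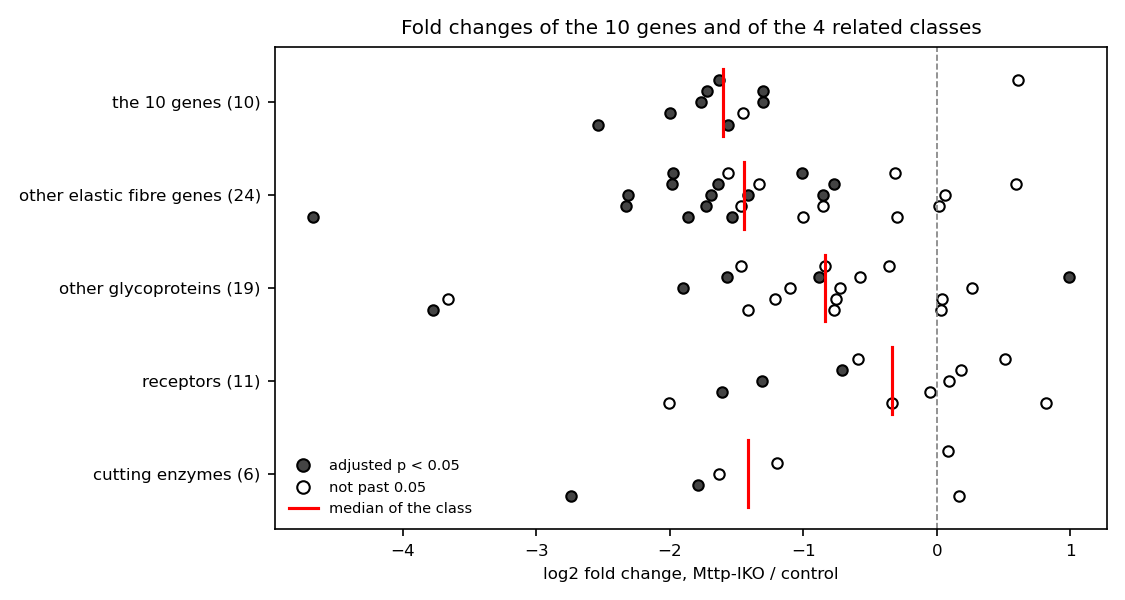
Log2 fold changes (*Mttp-IKO* / control) of the 10 genes and of the tested genes of the 4 related classes, with filled circles for an edgeR adjusted p under 0.05, open circles for the rest and red bars for the class medians. The 10 genes and the 24 other elastic fibre genes have medians of -1.60 and -1.44, the 11 receptors -0.34, and Smoc1 at 0.99 is the filled circle right of 0.

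The pools' deviations were shared among most of the 10 genes. Control pool 1 was the highest control for 8 genes and control pool 2 the lowest for 8, the exceptions being Fbln5 and Fn1 for the first and Fbln2 and Fn1 for the second. Control pool 2, with the most striated muscle RNA, was thus the control nearest to *Mttp-IKO* liver for most genes. In control pool 3, where muscle markers were at 1.22 CPM, the level of each of the 9 genes was above all *Mttp-IKO* pools. That repeats the separation of every control pool already given and is no separate check. Set alone against the 3 *Mttp-IKO* pools in edgeR, control pool 3 gave a median log2 fold change of -1.59 over the 10 genes. The spread in that fit comes from the *Mttp-IKO* pools only, and the lone control is assumed to vary like them. Over all genes that comparison had a median log2 fold change of 0.0055.

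As a description, genes were ranked by Pearson's r of their log2 CPM with the mean standardized profile of the 10 genes over the 6 pools, among 11788 protein-coding genes with an average log2 CPM of at least 1. The 6 points share the contrast between genotypes. The genes most alike were Lhfp and S1pr2, a sphingosine 1-phosphate receptor, with r of 0.9997 each, then Rab3il1 and Il27ra (0.998 each) and Col1a2, a chain of type I collagen (0.997). Lhfp was at 29.2 ± 4.83 CPM in control and 13.2 ± 0.490 CPM in *Mttp-IKO* pools, and Col1a2 at 144 ± 61.9 and 19.5 ± 1.82 CPM. Among the 10 genes themselves, r with this profile ran from 0.871 for Eln to 0.991 for Emilin1, apart from Fn1 at -0.955. Each of the 10 is itself part of the profile and separates the genotypes, so a strong r was built in.

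The summed levels of marker lists of the cells known to make these proteins were lower as well. These lists were also chosen with earlier results of these data known. Over all genes tested, 3.09% were called lower and 16.5% had every *Mttp-IKO* pool below every control pool. The 10 stellate cell markers summed to 499 to 659 CPM in the controls, against 346 to 467 CPM in the *Mttp-IKO* pools. Reln was the largest part of that sum, at means of 281 and 208 CPM, and its pools overlapped between genotypes (edgeR adjusted p 0.235). Of the 10 markers, Lrat, Pdgfrb, Tcf21, Ngfr and Colec11 fell, with log2 fold changes of -2.78 to -1.20. Reln, Rgs5, Hgf, Hhip and Vipr1 did not pass. The list did not move as a whole: Hhip, at 4.47 CPM in control and 7.64 CPM in *Mttp-IKO* liver, was above the controls in every *Mttp-IKO* pool (log2 fold change 0.77, edgeR adjusted p 0.0615), and Vipr1 had a log2 fold change of 0.13. The 8 portal fibroblast markers summed to 23.9 to 34.0 CPM in controls, against 7.79 to 14 CPM in *Mttp-IKO* pools, with 1 (Dpt) falling. The 6 smooth muscle markers summed to 56.3 to 88.5 CPM in controls and 21.3 to 27.7 CPM in *Mttp-IKO* pools, with 4 falling. Acta2, on the smooth muscle list, had means of 15.6 CPM in control and 3.84 CPM in *Mttp-IKO* pools. The paper counts its mRNA (Sma) among fibrogenic genes, so that list does not mark smooth muscle cells alone. Endothelial (409 to 445 and 392 to 451 CPM), macrophage (447 to 752 and 303 to 473 CPM), cholangiocyte (68.7 to 193 and 48.6 to 93.9 CPM), mesothelial (13.2 to 24.2 and 8.30 to 16.9 CPM) and platelet markers (5.90 to 9.02 and 5.34 to 9.47 CPM) overlapped between genotypes in their sums. Among the macrophage markers Timd4 rose from 4.73 to 10.6 CPM (edgeR adjusted p 0.0425), while Adgre1 and Cd68 did not pass, with log2 fold changes of -0.98 and -1.45 and *Mttp-IKO* pools all below the controls. The part of cell number in the lower levels of the 9 genes was not tested.

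**Figure D5:**
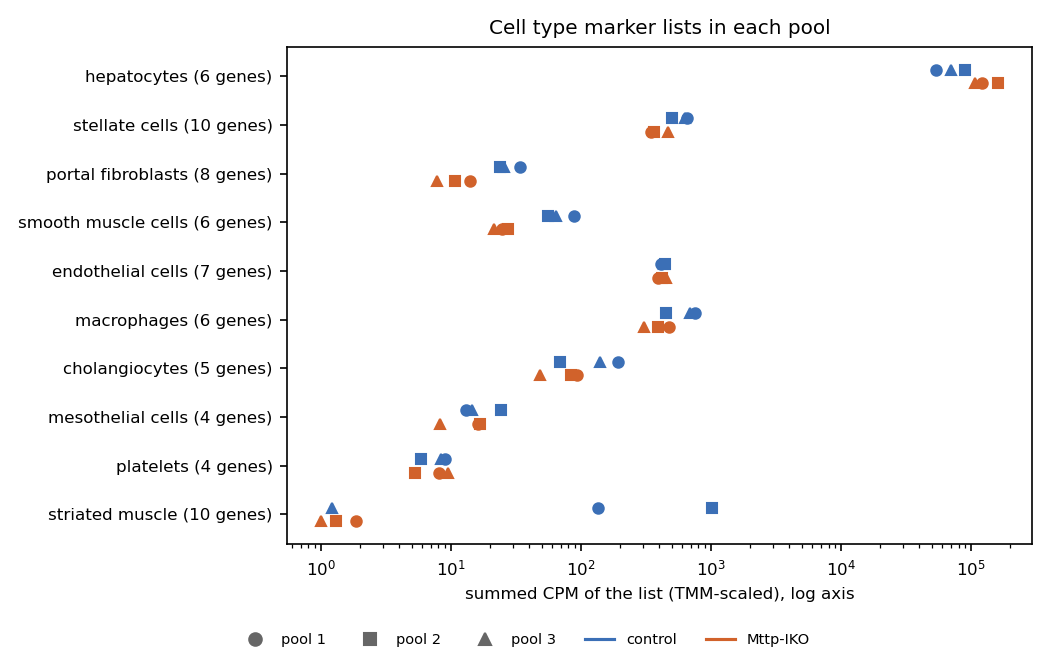
Summed TMM-scaled CPM of each cell type marker list in each pool, on a log axis, with symbols for pools 1 to 3 of each genotype. Stellate, portal fibroblast and smooth muscle lists are lower in every *Mttp-IKO* pool, the hepatocyte sum, mostly Alb, is higher (106088 to 160962 against 53325 to 88748 CPM) although Ttr alone is lower, and striated muscle stands out in control pools 1 and 2 at 135 and 1021 CPM.

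Relative to the mean of the stellate marker list, the 9 genes were lower in *Mttp-IKO* liver, but that mean includes Hhip and Vipr1, whose log2 fold changes were above 0. The median log2 fold change of all 10 stellate markers was -0.88, beside -1.64 for the 9 genes. The medians of the portal fibroblast and smooth muscle lists were -1.31 and -1.63. The 5 stellate markers that fell, a part picked by its own change, had log2 fold changes of -2.78 to -1.20. The mean log2 CPM of the stellate markers was 4.97 ± 0.22 in control and 4.08 ± 0.090 in *Mttp-IKO* pools, a difference of -0.89. Expressed against that mean in the same pool, the 9 genes had differences of -1.64 (Mfap4) to -0.40 (Emilin1) on the log2 scale, with a median of -0.69. The pools of 7 genes did not overlap. Each had an exact permutation p of 0.1, the smallest two-sided value that 3 against 3 can give. The share of all genes that would separate against this mean was not computed, so the count has no background beside it. Eln (exact permutation p = 0.4) and Fbln2 (0.2) overlapped. With the summed CPM of the list as the reference the median difference was -0.98. Against the list's mean, Mfap4 had ratios of -3.00, -3.31 and -3.43 in control pools and -4.96, -5.13 and -4.59 in *Mttp-IKO* pools on the log2 scale, whereas Emilin1 had 1.48, 1.33 and 1.30 and 1.19, 0.83 and 0.91.

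Since each of the 9 genes was lower and Fn1 higher in every *Mttp-IKO* pool, their ratios to Fn1 had to separate, and the sizes are given as a description. The log2 ratio to Fn1 differed between genotypes by a median of -2.19, from -1.89 for Emilin1 to -3.14 for Mfap4. Of the 6 hepatocyte markers 5 had a log2 fold change above 0, while Ttr had -0.55 with all *Mttp-IKO* pools below the controls. In edgeR 0 of the 6 passed. Their summed level, 53325 to 88748 CPM in control and 106088 to 160962 CPM in *Mttp-IKO* pools, was mostly Alb, at means of 54086 and 104640 CPM. In a comparison chosen after the values had been seen, Fn1 against the mean log2 CPM of the hepatocyte markers was -0.60 ± 0.10 in control and -0.56 ± 0.20 in *Mttp-IKO* pools. These ratios overlapped between genotypes, with a difference of 0.043 (exact permutation p = 0.8). The mean includes Ttr, and a test of 3 against 3 pools cannot show that Fn1 and the markers changed alike. The part of hepatocyte RNA in the Fn1 level was not tested.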

How the data were processed

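Liver RNA of 6 pools, 3 per genotype, was analysed, with groups and replicate numbers taken from the labels. The authors made ribosome-depleted libraries, aligned reads with STAR 2.5.1a to Ensembl release 76 (GRCm38), and deposited for each pool the count of uniquely aligned, unambiguous reads per gene from featureCounts 1.4.6-p5. Whether the strand was used is not given in the sources used here. The authors also deposited CPM and RPKM, which follow from the counts and the gene length, so only counts were tested; the CPM and RPKM printed here were recomputed with TMM scaling. The deposited table of all pools holds 40481 genes, after 276 repeated lines were dropped. A level of 3 reads equals 0.0828 to 0.119 CPM and covers counting error only. Pools of a genotype differed by more than sampling noise.

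Genes were filtered with filterByExpr (minimum count 10, minimum total 15) and compared by the quasi-likelihood test of edgeR 4.0.16 in R 4.3.3 (estimateDisp, glmQLFit, glmQLFTest); p-values were adjusted by Benjamini-Hochberg over 17287 genes, with 0.05 as the threshold. Log2 ratios to marker lists were compared by exact permutation tests, two-sided, which cannot give a p under 0.1. The test was run on simulated counts with planted changes before use. The 10 genes, the list of 65 and the marker lists were chosen with earlier results of these data known. Named from the list of 65 were, in each class, up to 5 genes that passed, by smallest p, and up to 2 of the highest mean CPM that did not, besides the 5 genes most alike to the 10 (pseudocount 0.1 CPM). Alternatives were other scalings, filters, DESeq2 1.42.0, limma-voom (limma 3.58.1), robust dispersion, protein-coding genes only, a replicate block, removal of a loess trend with gene length (span 0.3), and leaving out each pool; control pool 3 alone was added after seeing the data. Promoter windows were RefSeq's (GRCm38.p6). Figures were drawn with matplotlib 3.10.9.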

Additional observations from a re-analysis of the deposited data

How the results depend on the processing

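The direction of each of the 10 genes was the same under every alternative run, and their median log2 fold change was -1.81 to -1.34 with 1 pool left out and -1.79 to -1.54 otherwise. Of the 10 genes 8 passed at an adjusted p under 0.05, against 10 with the DESeq2 Wald test, 5 with limma-voom, 7 with the length trend removed, 0 to 7 with 1 pool left out and 0 with control pool 3 alone, a comparison added after seeing the data; fits with fewer pools have less information on the spread. Over all genes 694 passed, against 1995 with the DESeq2 Wald test, 428 with limma-voom, 0 to 892 with 1 pool left out and 0 with control pool 3 alone; without *Mttp-IKO* pool 2 edgeR made 0 calls with 3221 genes at an unadjusted p under 0.05. The related list had 24 calls, against 0 to 26 with 1 pool left out and 0 with control pool 3 alone. The difference of the 9 genes from the stellate markers moved from -0.69 to -0.98 with summed CPM and was -0.88 to -0.57 with 1 pool left out. Total counts in place of TMM shifted the median of all genes to -0.17 and gave 902 lower and 113 higher calls, and removal of the length trend shifted it to 0.12 and gave 508 lower and 353 higher, against 535 and 159. The cause of these shifts was not tested. The methods name no pairing of same-numbered pools. The correlation of deviations was 0.139, 0.112 and 0.0070 in same-numbered pools and -0.125 to 0.0208 in the other pairs. These low values do not settle whether the pools pair. With the replicate number as a block 8 of the 10 genes, 595 of all genes and 16 of the related list passed. Depth limits Mfap4 most, at 14 to 18 reads in *Mttp-IKO* pools.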
